A study of Mus musculus with 4 samples.

Results

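Collagens, their processing and cross-linking enzymes and the other matrix genes of fibroblasts were followed through 4 tumors. The set was a list of 44 genes defined by name, with no threshold on measured values. A gene was measured where at least 1 probe set of the array was annotated to that gene symbol alone, and it was represented by its probe set of highest mean signal. This gave 42 of the 44 genes, out of 12393 genes on the array with such a probe set. The protease gene Adamts2 and the fibrillin gene Fbn1 had none and were not analysed here. The tumors grew under the skin of nude (NCR Nu/Nu) mice from injected immortalized baby mouse kidney epithelial cells (iBMK), in lines described as isogenic. In each value pair below, tumor 1 of a group comes before tumor 2. The cells of all 4 tumors lacked the autophagy gene Atg5 (ATG5-/-) and expressed Bcl-2. In 2 tumors they also expressed the fluorescent protein EGFP. In the other 2 they expressed p62-EGFP, EGFP fused to p62, an adaptor that autophagy degrades. No treatment was given. The age of the mice, the promoter of the transgenes and whether each tumor had its own mouse are not given in the sources used here, so p-values measure only the spread between these tumors. Injected cells and host are both mouse, so the array does not tell matrix RNA of tumor cells from that of host fibroblasts. In such whole tumors, fewer cells of a type and less RNA per cell cannot be told apart.

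Fibrillar collagens form the tensile fibres of connective tissue. Their procollagen chains are trimmed outside the cell, assembled into fibrils that collagens of other classes and small leucine-rich proteoglycans decorate, and cross-linked by lysyl oxidases. Epithelia and vessels instead rest on a basement membrane built from a network of type IV collagen, laminin and nidogen. In solid tumors much of the fibrillar matrix is made by fibroblasts, and metalloproteases and their inhibitors set how fast it turns over.

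Values are MAS5 signals, the linear intensity of a probe set after the authors' scaling, and fold differences were tested as log2(signal + 16), a scale on which differences of low signals come out smaller than they are. Probe sets whose 4-array mean fell short of the 40th percentile, a log2 value of 5.60, were not tested, which left 7846 genes and 37 of the 42 matrix genes. The 5 below it were Col12a1, Fmod, Ogn, Mfap4 and Mmp3. The mean spans both groups, so a gene dim in the EGFP tumors could be tested through its p62-EGFP values, or the reverse. Over all 13576 tested probe sets, 12 passed limma's test after Benjamini-Hochberg adjustment (0.0884%), 8 higher (0.0589%) and 4 lower (0.0295%) in the p62-EGFP tumors. Epithelial markers were present in every tumor, with Krt18 at 254 to 730 and Epcam at 109 to 660, whereas Krt7, Cdh16 and Pax8 stayed under 16 on all arrays.

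None of the 37 tested matrix genes passed the test (limma, adjusted p under 0.05 over all probe sets). At an unadjusted p under 0.05 in limma, 5 read higher and 2 lower in the p62-EGFP tumors, shares of which the background over all tested genes was 8.5% and 6.3%. The 5 were Lox, Postn, Col5a2, Mfap5 and Tnc, and the 2 were Col4a1 and Timp3. The p62-EGFP values were both higher than the EGFP values for 10 genes (27.0%, against 26.4% of all tested genes) and both lower for 5 (13.5%, against 22.1%). The share of higher genes was near the background and that of lower genes under it, and the median log2 difference of the list was 0.06 against 0.01 over all tested genes. Group medians ran in both directions, without a test between them. The 3 measured processing and cross-linking genes had a median of 0.57 (0.04 if EGFP tumor 1 is left out, 1.11 if EGFP tumor 2 is). The 5 listed fibrillar collagens had one of 0.63 (0.33 and 1.53). The 5 basement membrane genes had a median of -0.42 and were negative in 5 of 5. Their median was -0.05 if p62-EGFP tumor 1 is left out and -0.77 if p62-EGFP tumor 2 is.

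**Figure D1:**
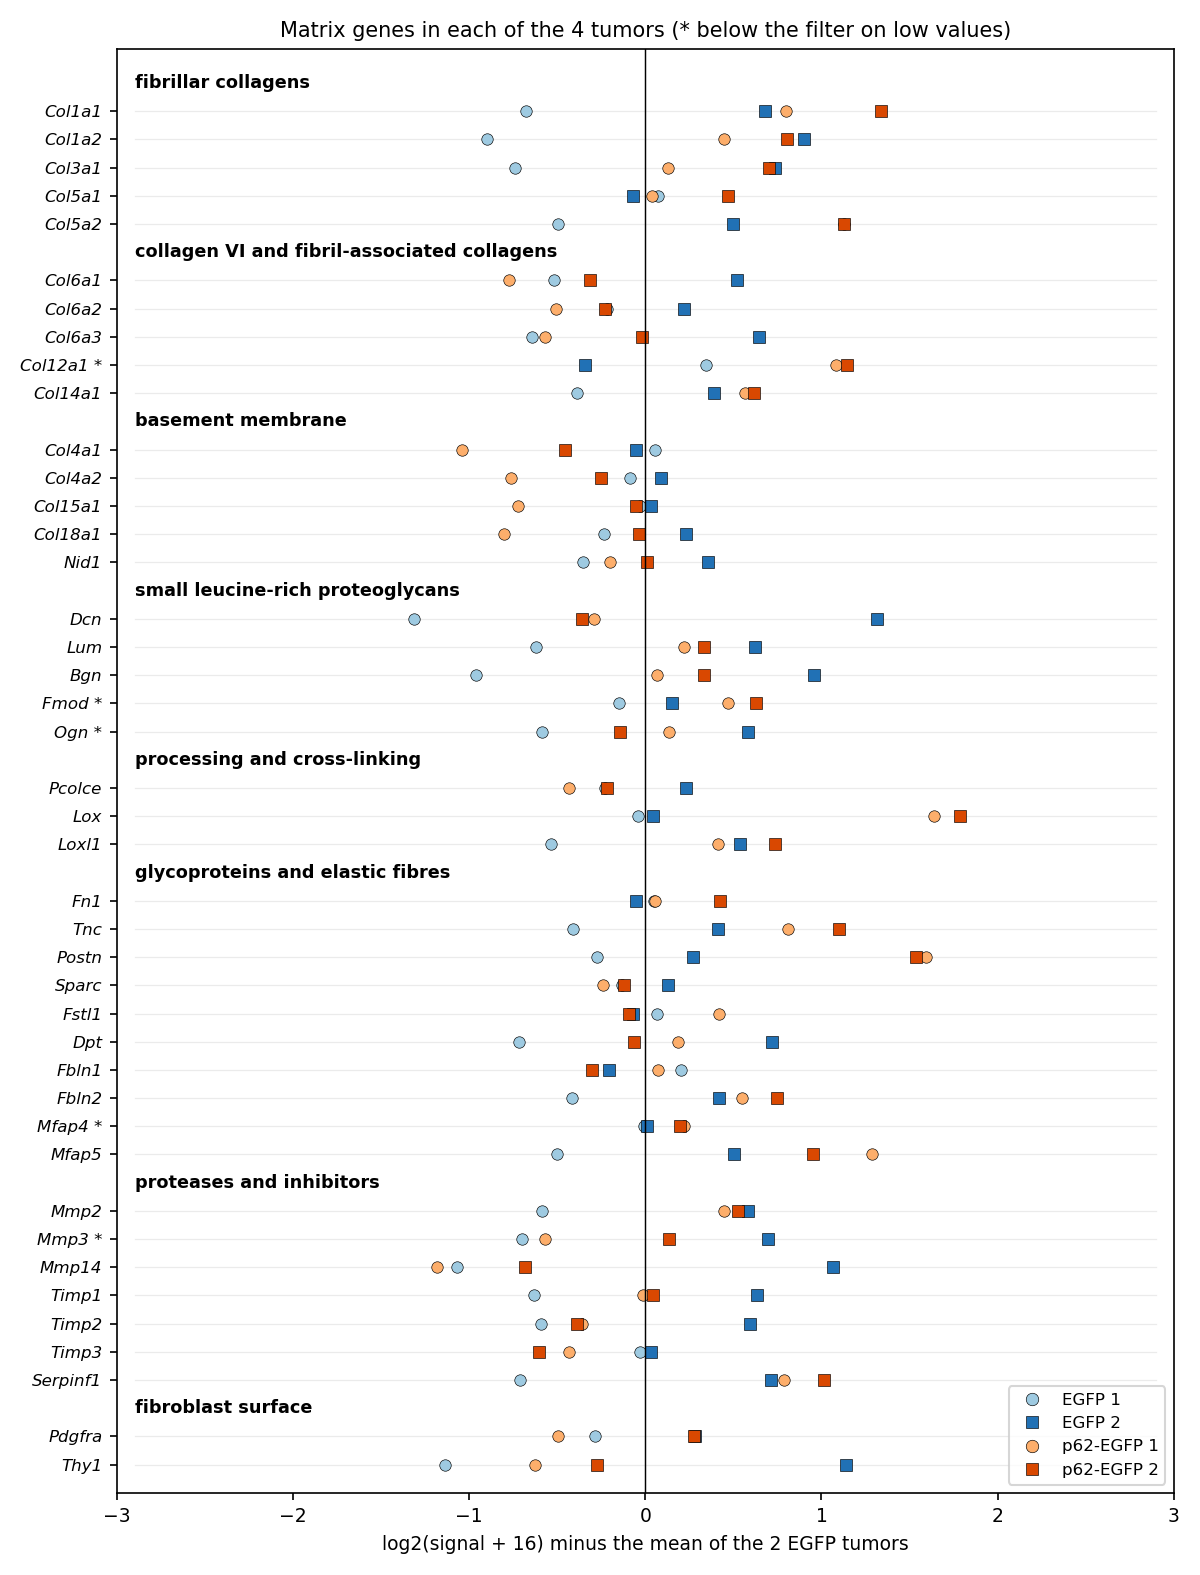
Each row is 1 of the 42 measured matrix genes and each point 1 tumor, placed by log2(signal + 16) minus the mean of the 2 EGFP tumors; genes with an asterisk were below the filter on low values. EGFP tumor 1 (pale blue circles) lies farthest left for most fibrillar collagens and all 5 proteoglycans, EGFP tumor 2 (dark blue squares) is farthest right for Dcn, Lum, Bgn and Ogn, and for Lox and Postn both p62-EGFP tumors (orange) lie well to the right of both EGFP tumors.

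The EGFP tumors differed from each other more than the groups did for 25 of the 37 genes (67.6%, against 57.0% of all tested genes). EGFP tumor 2 read above EGFP tumor 1 for 32 of them (86.5%, against 41.6%), by a median of 0.83 on the log2 scale, where all tested genes had a median of -0.08. EGFP tumor 1 was the lowest of the 4 tumors for 22 genes (59.5%, against 22.4%) and EGFP tumor 2 the highest for 22 (59.5%, against 24.6%). The p62-EGFP tumors lay closer together, with a median of 0.23 for tumor 2 over tumor 1. Set against EGFP tumor 1 alone, the median of the matrix genes was 0.51 in p62-EGFP tumor 1 and 0.66 in p62-EGFP tumor 2. Against EGFP tumor 2 alone it was -0.46 and -0.10, so the sign of the list median depends on which EGFP tumor is taken.

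Markers of other cells differed between the tumors as well, and their part in these results was not tested. Over all tested genes, 26.4% read above and 22.1% below both EGFP tumors. The marker counts that follow include dim markers under the filter. These were 3 of 11 endothelial, 4 of 9 pericyte and smooth muscle, 4 of 7 mast cell and 4 of 6 adipocyte markers. The summed signal of 15 macrophage and leukocyte markers was 1688 and 13930 in the EGFP pair, against 3090 and 3230 in the p62-EGFP pair, with 0 of the 15 under 16 on all arrays and 0 separating the groups. The 7 fibroblast markers that are not among the matrix genes summed to 609 and 1128 in the EGFP pair, against 505 and 659 in the p62-EGFP pair. Epithelial markers summed to 1911 and 748.5 against 1650 and 2447, the lowest being the tumor with the most leukocyte signal. Endothelial markers summed to 533 and 726 against 266 and 348, with 9 of 11 below both EGFP tumors. Pericyte and smooth muscle markers summed to 739 and 894 against 661 and 724, with 5 of 9 above and 4 below both EGFP tumors. These counts include Myh11 and Cnn1, which stayed under 16 on all arrays. Mast cell markers summed to 406 and 392.5 against 153 and 113, with 5 of 7 below both EGFP tumors and Ms4a2 under 16. Skeletal muscle markers stood at 59.1 and 653 against 5059 and 68.3, so p62-EGFP tumor 1 carried most muscle signal. Adipocyte markers summed to 985 and 2007 against 693 and 1173, with 3 of 6 above and 1 below both EGFP tumors and Lep under 16. The 1 below was Fabp4, at 698.9 and 1303.5 against 219.8 and 691.1, and Adipoq was among those above, at 5.5 and 8.8 against 11.3 and 63.7. Skin keratinocyte markers summed to 218.5 and 194 against 272 and 236, and the basal keratins Krt5 and Krt14 stayed under 16 together with Krt1 and Krt15.

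**Figure D2:**
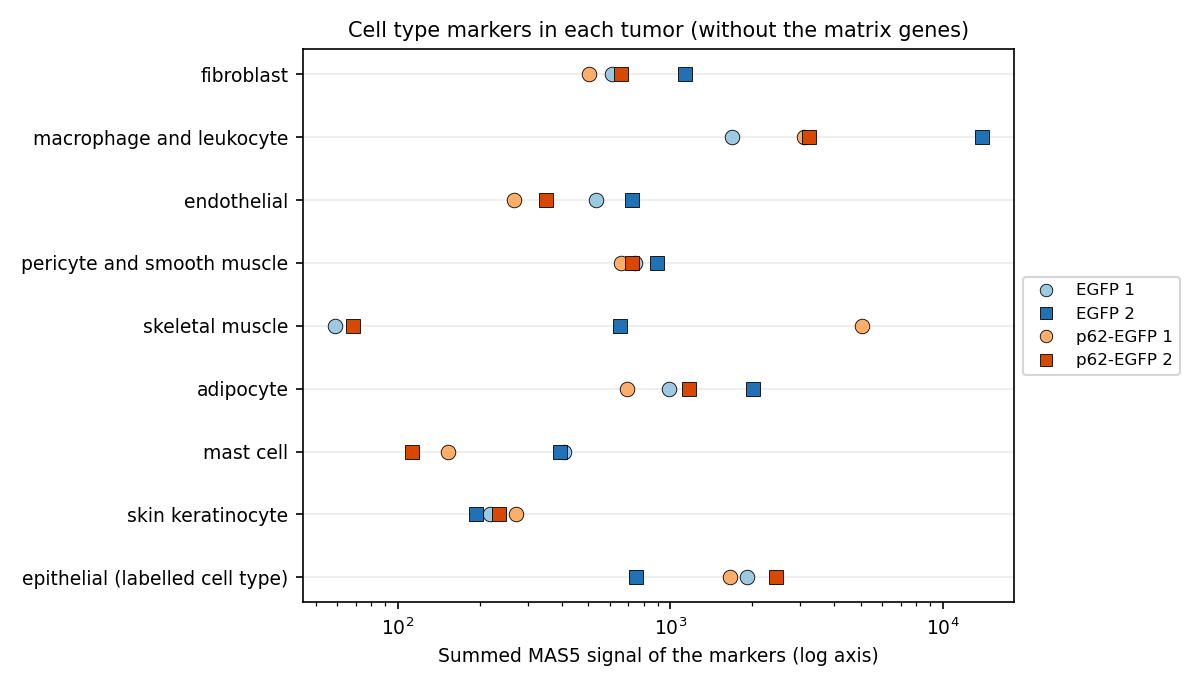
Points give the summed MAS5 signal of each list of cell type markers in each of the 4 tumors on a log axis, without genes that are also among the matrix genes. EGFP tumor 2 has the highest leukocyte sum (13930) and the lowest epithelial sum (748.5), and p62-EGFP tumor 1 the highest skeletal muscle sum (5059).

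Among the 5 listed fibrillar collagens, Col5a2 and Col1a1 read higher in both p62-EGFP tumors and the other 3 did not separate the groups. Col5a2 encodes the second chain of type V collagen, which nucleates fibrils and limits their width. Its signal was 134 and 283 in the EGFP pair, against 447.7 and 447.1 in the p62-EGFP pair. The p62-EGFP tumors were nearly equal, and the lower of them stood at 1.58 times the higher EGFP tumor. The log2 difference was 1.13 (SE 0.34, limma adjusted p = 0.265), and a second Col5a2 probe set gave 1.32. Col1a1, one of the 2 kinds of chain in type I collagen, read 71.1 and 207 in the EGFP pair, against 227 and 336 in the p62-EGFP pair. The groups were separated by a small step, since p62-EGFP tumor 1 stood at 1.1 times EGFP tumor 2. The log2 difference was 1.07 (SE 0.47, limma adjusted p = 0.370), and the second Col1a1 probe set also separated the groups, by 0.78. Col1a1 lies on chromosome 11, whose 697 tested genes had a median log2 difference of 0.30, and subtracting that median left 0.77. Without EGFP tumor 1 the difference was 0.39, and without EGFP tumor 2 it was 1.75.

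Col1a2, the partner chain in type I collagen, read 235 and 858 in the EGFP pair, against 622 and 803 in the p62-EGFP pair. Both p62-EGFP tumors lay between the EGFP tumors, and the log2 difference of 0.63 (SE 0.58) did not pass (limma adjusted p = 0.634). Col3a1, the chain of type III collagen of pliable tissues, read 456 and 1296 against 843.5 and 1266. It showed the same order, with EGFP tumor 1 far below the other 3. Without EGFP tumor 1 the log2 differences turned to -0.27 for Col1a2 and -0.32 for Col3a1. Col5a1, another chain of type V collagen, varied little, at 104 and 92.3 against 101 and 141.5. Its 3 probe sets differed in sign, from -0.13 to 0.25. The list of other collagens held 4 tested genes of 21, none of which passed. Of these, Col8a1, a short-chain network collagen of vessel walls, read 42.5 and 64 against 116 and 102 (log2 difference 0.87, SE 0.22, limma adjusted p = 0.232). Col11a1, a fibril-nucleating collagen of cartilage, read 68.8 and 141 against 172 and 147. Both p62-EGFP tumors were thus above both EGFP tumors for Col8a1 and Col11a1, whereas Col5a3 read lower in both, though p62-EGFP tumor 2 (66.0) nearly equalled EGFP tumor 1 (66.1).

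Type VI collagen forms beaded filaments next to the cell surface, and its 3 measured chains read lower or unseparated in the p62-EGFP tumors. Col6a1 read 159 and 344 in the EGFP pair, against 131 and 186 in the p62-EGFP pair. Col6a2 read 217 and 300 against 175 and 215, and Col6a3 90.5 and 244 against 96.2 and 148. For each of them EGFP tumor 2 was the highest, and only for Col6a2 were both p62-EGFP tumors below both EGFP tumors, by a factor of 1.01. Their log2 differences of -0.55, -0.37 and -0.29 did not pass (limma adjusted p = 0.536, 0.476 and 0.784). The fibril-associated collagens Col12a1 and Col14a1, which sit on the surface of collagen fibrils, ran the other way. Col14a1 read 22.4 and 49.9 against 58.6 and 61.1, with a log2 difference of 0.59 (SE 0.30, limma adjusted p = 0.418). Col12a1 was too dim to be tested, at 14.1 and 2.7 against 34.3 and 36.5.

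Of the 5 basement membrane genes, 3 read lower in both p62-EGFP tumors (60%, against 22.1% of all tested genes), Col4a1, Col4a2 and Col15a1, and the other 2 overlapped. The p62-EGFP tumor 1 was the lowest of the 4 for 4 of the 5. Col4a1 and Col4a2 encode the chains of the most widespread type IV collagen and are transcribed in opposite directions from one shared start region. Col4a1 read 738 and 683.5 in the EGFP pair, against 337 and 513 in the p62-EGFP pair. The group means were 711.0 ± 38.82 and 425.1 ± 124.6 (SD, n = 2 each), and each p62-EGFP tumor was below both. The log2 difference was -0.75 (SE 0.22, limma adjusted p = 0.263), and the second Col4a1 probe set gave -0.84. Col4a2 read 249 and 283 against 150 and 220 (log2 difference -0.51, SE 0.22, limma adjusted p = 0.368). Both genes lie on chromosome 8, whose 417 tested genes had a median of -0.22. After subtraction Col4a1 stood at -0.53 and Col4a2 at -0.29. Col15a1, which encodes a collagen linking basement membranes to the matrix beneath, read 45.8 and 48.7 against 22.3 and 44.9. Its separation rested on p62-EGFP tumor 1, since p62-EGFP tumor 2 was within a factor of 1.02 of EGFP tumor 1, and without p62-EGFP tumor 1 the log2 difference was -0.05. Col18a1, whose product carries the endostatin fragment, read 63.0 and 93.1 against 37.2 and 74.5, and Nid1, the nidogen that ties laminin to type IV collagen, 88.4 and 154.5 against 100.1 and 118. On these probe sets the groups overlapped for both, while a second Col18a1 probe set read 40.2 and 58.7 against 18.4 and 32.3, lower in both p62-EGFP tumors (log2 difference -0.67). The median of the 5 genes was -0.05 when p62-EGFP tumor 1 was left out and -0.77 when p62-EGFP tumor 2 was. Endothelial markers, whose cells also lay down basement membrane, summed lowest in p62-EGFP tumor 1, at 266. So did the fibroblast markers outside the matrix genes (505), the pericyte and smooth muscle markers (661) and the adipocyte markers (693). Any link of these sums to the basement membrane genes was not tested.

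Other basement membrane genes read both ways. Of 19 listed, 11 were tested, 0 passed (limma, with 0 at an unadjusted p under 0.05), and their median log2 difference was -0.05. Lamb1, a laminin beta chain, read 86.4 and 116 against 129 and 178 (limma adjusted p = 0.370), above both EGFP tumors. Lamc1, the laminin gamma chain, read 249 and 253 against 196 and 241, and Nid2, the second nidogen, 171 and 141 against 132 and 122, both below both EGFP tumors.

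The sequence stretches that follow show the start regions of genes from both sides of this comparison, where RefSeq gives them on build GRCm38.p6. Start regions were at hand for 31 of the 44 genes. They were searched over the 250 bases before each start on both strands for the TATA box as TATAAA, for the CCAAT box and for the GC box as GGGCGG. Matches are in capitals, and matches of the CCAAT and GC boxes can share bases. For the type IV pair RefSeq sets the Col4a2 start at position 11312805 of chromosome 8 and the Col4a1 start 21 bases farther, on the opposite strand. The 30 bases shown, chr8:11312761-11312790 on the plus strand, run from 44 to 15 bases before the Col4a2 start and hold its CCAAT. These bases lie past the Col4a1 start, and the CCAAT match before that start is another one, 145 bases from it. Postn is shown from its downstream start (chr3:54360857-54361106, plus strand), with TATAAA beginning 26 bases before it. Serpinf1 (chr11:75422624-75422873, minus strand) holds CCAAT at 241, 160 and 148 bases. Timp3 (chr10:86300162-86300411, plus strand) has a GGGCGG on the opposite strand at 15 bases.
Col4a2: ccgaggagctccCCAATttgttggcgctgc
Postn: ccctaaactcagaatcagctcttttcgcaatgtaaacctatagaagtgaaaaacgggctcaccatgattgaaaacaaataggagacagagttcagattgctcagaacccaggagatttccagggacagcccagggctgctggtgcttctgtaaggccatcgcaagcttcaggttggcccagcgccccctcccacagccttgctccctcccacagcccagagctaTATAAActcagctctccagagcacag
Serpinf1: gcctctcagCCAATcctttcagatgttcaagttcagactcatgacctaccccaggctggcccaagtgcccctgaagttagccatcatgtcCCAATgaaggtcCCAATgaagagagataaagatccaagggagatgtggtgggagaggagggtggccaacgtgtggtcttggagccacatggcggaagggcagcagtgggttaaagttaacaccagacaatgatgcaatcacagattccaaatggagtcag
Timp3: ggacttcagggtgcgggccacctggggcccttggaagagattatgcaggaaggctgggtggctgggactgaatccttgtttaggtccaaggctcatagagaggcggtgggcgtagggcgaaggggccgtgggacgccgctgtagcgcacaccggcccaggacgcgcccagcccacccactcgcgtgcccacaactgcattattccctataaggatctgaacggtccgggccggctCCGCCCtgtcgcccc

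Across the 36 start regions of the matrix genes, TATAAA was found in 16.7%, CCAAT in 25.0% and GGGCGG in 55.6%. Over all 32851 RefSeq start regions the shares were 12.4%, 33.8% and 32.7%. Among genes that read higher in both p62-EGFP tumors, 3 of 7 start regions (5 genes) held TATAAA, 1 held CCAAT and 3 held GGGCGG. The TATAAA matches came from Postn and from a pair of overlapping Tnc regions that share 1 match. The GGGCGG matches came from Fbln2 and from the same Tnc pair, which shares 1 match there too. Among genes that read lower in both, 0, 2 and 4 of 6 regions held the motifs. These matches describe the letters in the window and were not tied to binding of any factor.

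Of the 3 measured genes that process and cross-link procollagen, Lox had the smallest p of the 37 tested genes. Lox encodes lysyl oxidase, which oxidizes lysines of collagen and elastin to start cross-linking. Its mean signal was 24.1 ± 1.70 (SD, n = 2) in the EGFP tumors and 115.7 ± 9.405 (SD, n = 2) in the p62-EGFP tumors. It read 22.9 and 25.3 in the EGFP pair, against 109 and 122 in the p62-EGFP pair. Both EGFP values were under the filter, a signal of 32.7, so Lox was tested only through its p62-EGFP values. The pairs were tight, and the lower p62-EGFP tumor stood at 4.31 times the higher EGFP tumor. The log2 difference was 1.71 (SE 0.18), with an unadjusted p of 1.63e-04 and an adjusted p of 0.107 in limma. A second probe set gave 17.5 and 21.8 against 75.6 and 96.3, and the remaining one stayed at 1.3 to 2.9 on all arrays. Loxl1, a related oxidase of elastic fibres, read 28.7 and 78.2 against 70.2 and 92.2. Only EGFP tumor 1 was low for it (log2 difference 0.57, SE 0.38, limma adjusted p = 0.524). Pcolce, an enhancer of procollagen trimming, read 125 and 177 against 106 and 126 (log2 difference -0.33, limma adjusted p = 0.527).

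Of 4 other cross-linking enzymes listed apart from Lox and Loxl1, 3 were measured and 2 tested, and both read lower in the p62-EGFP tumors. Loxl3, another member of the family, read 129 and 125 against 97.4 and 85.4 (log2 difference -0.41, SE 0.17, limma adjusted p = 0.348). Tgm2, the tissue transglutaminase, read 84.6 and 617 against 35.3 and 42.0, with the highest value in the EGFP tumor of highest leukocyte signal (log2 difference -2.21, SE 0.83, limma adjusted p = 0.328). Enzymes and chaperones that fold and hydroxylate procollagen inside the cell had a median of -0.03 over 14 tested genes of 20, with 0 past the test and, at an unadjusted p under 0.05 in limma, 0 higher and 1 lower. That gene was Plod1, a lysyl hydroxylase, at 91.4 and 95.5 against 64.5 and 65.5. Its relative Plod2, which hydroxylates the collagen telopeptides that lysyl oxidases use, read 228 and 242 against 313 and 269 (log2 difference 0.29, SE 0.16, limma adjusted p = 0.462). P4hb, the shared subunit of prolyl hydroxylase, read 1338 and 1332 against 1491 and 1745, and P3h3, a prolyl 3-hydroxylase family member, 61.3 and 52.1 against 83.4 and 69.5.

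**Figure D3:**
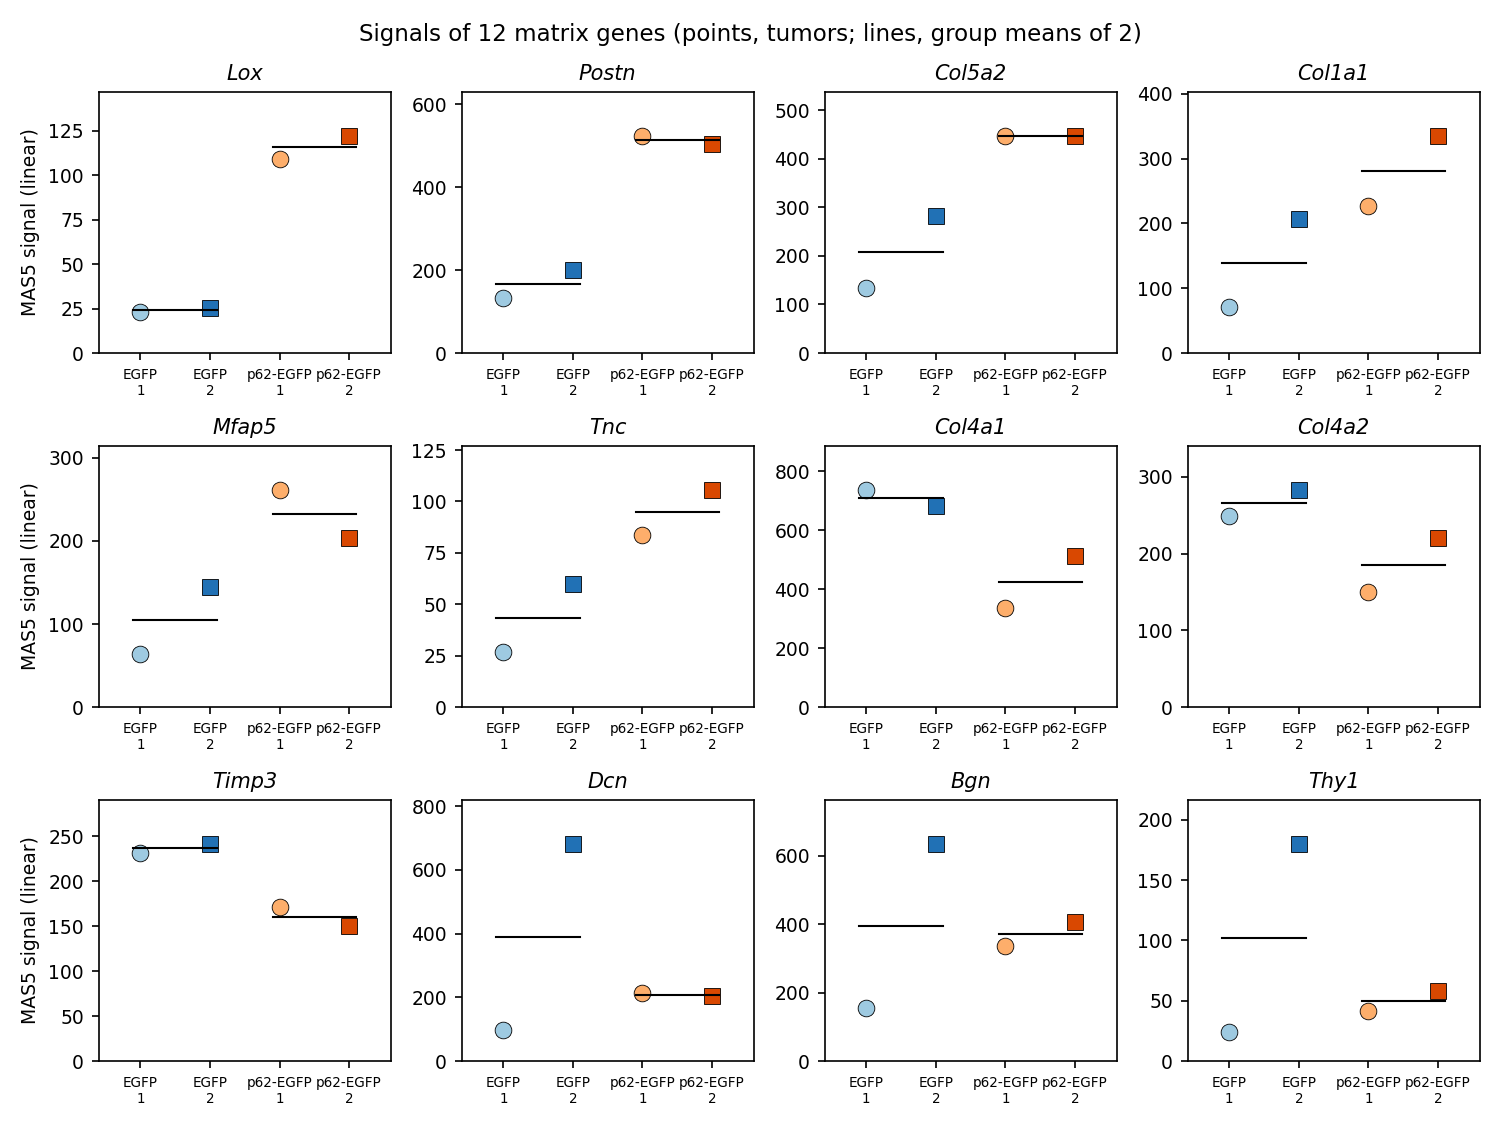
Points are the MAS5 signals of 12 matrix genes in the 4 tumors on linear axes from 0, each with its own range, and lines are group means of 2 tumors. Lox (22.9 and 25.3 against 109 and 122) is separated with tight pairs. Postn is separated with a tight p62-EGFP pair and EGFP tumors at 132.5 and 201. Col4a1, Col4a2 and Timp3 read lower in both p62-EGFP tumors, and for Dcn, Bgn and Thy1 the EGFP tumors span the p62-EGFP tumors.

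Of 9 tested glycoprotein genes, 5 read higher in both p62-EGFP tumors (55.6%, against 26.4% of all tested genes): Postn, Mfap5, Tnc, Fbln2 and Fn1. Postn encodes periostin, a secreted protein that binds collagen and assists its cross-linking. Its signal was 132.5 and 201 in the EGFP pair, against 525 and 505 in the p62-EGFP pair. The group means were 166.6 ± 48.15 and 515.0 ± 13.93 (SD, n = 2 each). The lower p62-EGFP tumor stood at 2.52 times the higher EGFP tumor, and the log2 difference was 1.57 (SE 0.22), with an unadjusted p of 6.79e-04 and an adjusted p of 0.161 in limma. Mfap5, a microfibril-associated glycoprotein, read 64.3 and 145 against 262 and 204. The groups were apart by a factor of 1.41 (log2 difference 1.12, SE 0.36, limma adjusted p = 0.286), and the second probe set agreed in direction, at 0.90. Tnc, the anti-adhesive glycoprotein tenascin C, read 26.8 and 59.7 against 83.9 and 106 (log2 difference 0.95, SE 0.32, limma adjusted p = 0.294). Fbln2, a fibulin of basement membranes and elastic fibres, read 18 and 44.6 against 50.3 and 60.1. Its mean EGFP signal of 31.3 was under the filter, so Fbln2 was tested through its p62-EGFP values. Fn1, fibronectin, was separated only nominally, at 949 and 882 against 951 and 1231, a factor of 1.00 between the nearest tumors.

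The remaining glycoproteins overlapped between the groups. Sparc, a collagen-binding protein, read 751 and 903 against 695 and 756, and Fstl1, a secreted follistatin-related protein, 1533 and 1393 against 1962 and 1372. Dpt, dermatopontin, which binds decorin, read 41.9 and 141 against 92.4 and 75.3. Fbln1, another fibulin, read 223 and 164 against 202 and 152. Mfap4 was near 0 on all arrays, at 0.5 to 3.3. Among 6 tested of 12 other elastic fibre genes, 0 passed (limma), 1 was higher and 1 lower at an unadjusted p under 0.05. The higher one was Mfap2, the paralog of Mfap5, at 5.7 and 54.2 against 110.2 and 109 (log2 difference 1.69, SE 0.55, limma adjusted p = 0.292), and the lower one Ltbp1, a protein that stores latent TGF-beta, at 143 and 113 against 77.2 and 57.7 (log2 difference -0.79, limma adjusted p = 0.242). The mean EGFP signal of Mfap2, 29.95, was under the filter, so Mfap2 was tested through its p62-EGFP values. Elastin itself, Eln, read 44.4 and 34.0 against 51.7 and 59.1.

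The 3 tested small leucine-rich proteoglycans, a class that coats collagen fibrils and regulates their width, were highest in EGFP tumor 2. Dcn, decorin, read 97.2 and 683 in the EGFP pair, against 214 and 203 in the p62-EGFP pair. Bgn, biglycan, read 156 and 636 against 336 and 406, and Lum, lumican, 21.3 and 72.4 against 50.8 and 56.3. In each of the 3 the EGFP tumors were the extremes and the p62-EGFP tumors lay between them. The EGFP tumors differed by 2.63, 1.92 and 1.24 on the log2 scale, against group differences of -0.33, 0.20 and 0.28 (limma adjusted p = 0.870, 0.894 and 0.782). Fmod, fibromodulin, and Ogn, osteoglycin, were too dim to be tested, at 6.0 and 11.1 against 17.8 and 21.8 and at 9.0 and 40.3 against 25.2 and 17.9. Fmod thus did not follow EGFP tumor 2, and 5 of its 6 probe sets read higher in both p62-EGFP tumors. Of 10 other proteoglycans 4 were tested, 0 passed (limma), and 2 read higher at an unadjusted p under 0.05. They were Aspn, asporin, at 37.8 and 42.9 against 92.2 and 71.1 (log2 difference 0.79, SE 0.20, limma adjusted p = 0.234), and Vcan, the large proteoglycan versican, at 60.4 and 62.3 against 102 and 88.9 (log2 difference 0.52, limma adjusted p = 0.295).

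**Figure D4:**
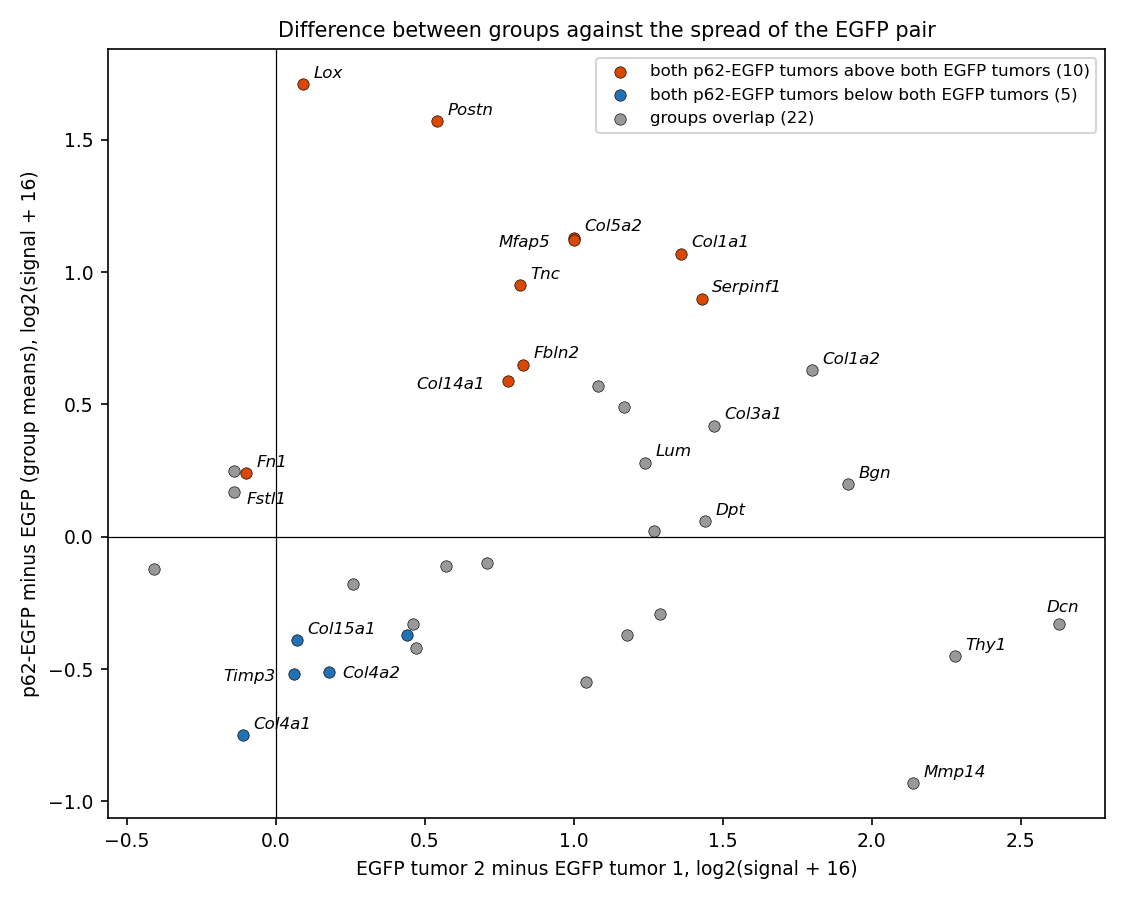
Each point is 1 of the 37 tested matrix genes; the x axis is the log2 difference between the EGFP tumors (tumor 2 minus tumor 1) and the y axis the log2 difference between the group means (p62-EGFP minus EGFP). Lox and Postn have group differences (1.71 and 1.57) larger than the differences within the EGFP pair (0.09 and 0.54). Dcn and Thy1 show the reverse (2.63 and 2.28 in the EGFP pair). Col4a1, Col4a2, Col15a1 and Timp3 lie below 0 with little difference within the EGFP pair. The difference within the p62-EGFP pair (tumor 2 minus tumor 1), which is not plotted, was 0.58, 0.51, 0.67 and -0.17 for them.

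Of the fibroblast surface genes, Thy1 was highest in EGFP tumor 2, as Dcn, Bgn and Lum were. Pdgfra was nearly equal in EGFP tumor 2 and p62-EGFP tumor 2. Its dimmer, untested probe set read 29.5 and 26.8 against 18.9 and 28.8. Thy1, a surface glycoprotein of fibroblasts and some lymphocytes, read 24.5 and 180 against 41.7 and 57.8, and Pdgfra, the PDGF receptor that marks fibroblasts, 69.1 and 110 against 57.5 and 109. Neither separated the groups (log2 differences -0.45 and -0.11, limma adjusted p = 0.794 and 0.894). All 14 fibroblast markers were measured, and each reached 16 on at least 1 array. Among them 7 are themselves matrix genes of this list, and 3 fell below the filter. Of the 14, 2 separated the groups upward, the matrix gene Col1a1 among them, and 1 downward. The shares over all tested genes were 26.4% and 22.1%. The summed signal of the 14, matrix genes included, was 1169 and 3379 in the EGFP pair, against 1811 and 2300 in the p62-EGFP pair.

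Among proteases and inhibitors, Timp3 read lower and Serpinf1 higher in both p62-EGFP tumors. Timp3, a metalloprotease inhibitor bound to the matrix, read 231 and 242 against 171 and 150, and all 4 of its probe sets separated the groups, with log2 differences from -0.66 to -0.46. The log2 difference of the brightest was -0.52 (SE 0.16, limma adjusted p = 0.274). Timp2, an inhibitor that also helps activate Mmp2, read 231 and 546 against 275 and 268 on its brightest probe set, which overlapped, while 4 of its other 5 probe sets read lower in both p62-EGFP tumors. The remaining Timp2 probe set stayed at 0.3 to 1.9. Timp1, an inducible inhibitor, read 69.9 and 190.5 against 116 and 121. Serpinf1, pigment epithelium-derived factor, a secreted serpin without protease inhibition, read 37.5 and 128 against 136 and 162 (log2 difference 0.90, SE 0.47, limma adjusted p = 0.427), and its second probe set gave 0.90 as well. Without EGFP tumor 1 the difference was 0.19. Serpinf1 shares chromosome 11 with Col1a1.

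Mmp14, a membrane-bound metalloprotease that cleaves collagen and activates Mmp2, read 60.3 and 319 in the EGFP pair, against 54.4 and 83.7 in the p62-EGFP pair. The high value belonged to EGFP tumor 2 alone, and the log2 difference of -0.93 (SE 0.69, limma adjusted p = 0.558) turned to 0.13 without that tumor. Mmp2, gelatinase A, read 23.1 and 72.0 against 64 and 68.3, with EGFP tumor 1 apart from the other 3. Mmp3, stromelysin 1, was too dim to be tested, at 8.4 and 48.2 against 10.7 and 27.4. Of 26 other proteases and inhibitors 11 were tested and 0 passed (limma). At an unadjusted p under 0.05 0 were higher and 1 was lower, Plat, tissue plasminogen activator, at 138.9 and 139.9 against 92.0 and 102.

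Receptors for collagen and other matrix proteins had a median log2 difference of -0.13 over 16 tested of 22, with 0 past the test and 1 in each direction at an unadjusted p under 0.05 in limma. Cd44, the hyaluronan receptor, read 441 and 651 against 328 and 318 (log2 difference -0.70, SE 0.22, limma adjusted p = 0.271). Sdc1, a heparan sulfate proteoglycan of epithelia, read 98.1 and 100.2 against 139.8 and 150.3 (log2 difference 0.48, SE 0.16, limma adjusted p = 0.294). Itgb1, the integrin beta chain that most collagen receptors share, read 453 and 534 against 402 and 368, and Sdc2, a second syndecan, 195.5 and 170.3 against 149 and 123.

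The calls themselves depended on the EGFP tumors in the fit. With EGFP tumor 1 left out, 13 of the 37 matrix genes passed limma's adjusted test, 4 higher and 9 lower, where 20.9% of all probe sets did, 11.1% higher and 9.74% lower. With EGFP tumor 2 left out 19 passed, 18 higher and 1 lower, where 9.53% of all did, 5.15% higher and 4.38% lower. In both fits the spread comes from the 2 p62-EGFP tumors, and the lone EGFP tumor is assumed to vary like them. Lox, Postn, Col5a2 and Mfap5 passed in both and in the same direction, as did 4.47% of the 13297 probe sets tested in both. Dcn, Bgn, Dpt and Timp1 passed in both and in opposite directions, as did 0.451%. With either p62-EGFP tumor left out, 0 passed in limma, and 0 of all 13576 probe sets did.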

How the data were processed

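The members and gene lists were chosen with earlier results of these data known. RNA of each of the 4 tumors was read on its own GeneChip (Mouse Genome 430A 2.0), 1 array a tumor. The authors deposited linear signal intensity values of 1 colour, computed with MAS5 per the submitters' processing notes. Version and settings are not given in the sources used here. Trimmed by 2% at both ends, every array averaged 150.04, and the values were used unchanged. Of 22690 probe sets, 64 controls were left out and 20380 had 1 gene symbol; 20351 matched the GRCm38.p6 gene table by Entrez identifier, and 0 symbols changed. The array values name no genome build, so that table gave only names and chromosomes.

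Values were transformed as log2(signal + 16) and filtered at the 40th percentile of the mean. R 4.3.3 with limma 3.58.1 fitted the groups (lmFit, then eBayes with a variance trend). The p-values are two-sided, adjusted by Benjamini-Hochberg over all tested probe sets and called under 0.05. Limma took the place of the Genes@Work selection that the series' design text names. All measured members are named. Other genes could be named if among the 4 of smallest p in a companion list or the 3 brightest in a marker list, and not all of those are; marker genes named for being under 16 on all arrays, and Lox, Postn and other members singled out, were chosen after values were seen. Groups are called separated where their values do not overlap; an exact two-sided test of 2 against 2 cannot go below p = 0.333. On 10 simulated sets of 13576 probe sets, the fit recovered 13.6% of changes of 1 on the log2 scale, 82.0% of 2 and 93.6% of 3. Of the calls, 4.01% were false. The simulation gave all 4 tumors the same spread per probe set and drew probe sets independently. In the data, differences within the EGFP pair had an SD of 0.604 across probe sets, against 0.2733 within the p62-EGFP pair. These rates therefore describe limma's own assumptions and may not hold for these tumors. With 4 arrays and 2 residual degrees of freedom, the number of arrays limits the precision. Alternatives covered scaling, pseudocount, filter, variance trend, replicate block, probe set choice, chromosome medians and leaving out each tumor. Python 3.11.15, pandas 2.3.3, numpy 2.4.6 and matplotlib 3.10.9 made the summaries and figures.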

Additional observations from a re-analysis of the deposited data

How the results depend on the processing

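The 12 called probe sets were 6 without a filter, 7 with a filter at the 60th percentile, 37 with the replicate block, and 0 to 2835 when 1 tumor was left out. The replicate numbers are only numbers in the labels: deviations of same-numbered tumors correlated at 0.0823 across probe sets, and with the replicate block 0 matrix genes passed (limma). The 0 called matrix genes stayed 0 under the alternatives that kept all 4 tumors, other than subtracting chromosome medians, which was not tested, and ranged from 0 to 19 when 1 was left out. The 10 genes with higher p62-EGFP tumors were 6 of 25 tested with the filter at the 60th percentile, where the share over all genes was 27.7%. They were 11 to 23 when 1 tumor was left out, where the share over all genes was 34.4% to 48.2%. The 5 with lower p62-EGFP tumors were 8 of 35 with a mean over each gene's probe sets, where the share over all genes was 21.5%. They were 6 to 23 when 1 tumor was left out, where that share was 30.4% to 43.0%. With the filter at the 60th percentile, processing and cross-linking rested on 1 gene, Pcolce (-0.33), and the fibroblast surface genes gave no value.

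Leaving out 1 tumor moved the median log2 difference of the list between -0.35 and 0.65, of fibrillar collagens between 0.33 and 1.53, of basement membrane genes between -0.77 and -0.05, of glycoproteins between 0.23 and 0.78, of proteases and inhibitors between -0.58 and 0.43, of processing and cross-linking between 0.04 and 1.11, of collagen VI and fibril-associated collagens between -0.76 and 0.16, of proteoglycans between -0.76 and 0.99 and of fibroblast surface genes between -0.99 and 0.43. Averaging probe sets left Lox untested, and the other 2 processing and cross-linking genes, Pcolce (-0.29) and Loxl1 (0.57), had a median of 0.14. Genes that kept their sign were Lox (1.64 to 1.79), Postn (1.29 to 1.84), Col5a2 (0.63 to 1.63), Mfap5 (0.62 to 1.62), Tnc (0.54 to 1.37), Col1a1 (0.39 to 1.75), Fbln2 (0.23 to 1.06), Col14a1 (0.20 to 0.98), Serpinf1 (0.19 to 1.62), Loxl1 (0.04 to 1.11), Col4a1 (-1.04 to -0.46), Col4a2 (-0.77 to -0.25) and Timp3 (-0.61 to -0.43), among others. For these genes the sign turned: Col1a2 (-0.27 to 1.53), Col3a1 (-0.32 to 1.15), Col6a3 (-0.94 to 0.35), Nid1 (-0.45 to 0.26), Dcn (-1.64 to 0.99), Lum (-0.35 to 0.90), Bgn (-0.76 to 1.16), Fstl1 (-0.09 to 0.42), Dpt (-0.66 to 0.78), Fbln1 (-0.32 to 0.09), Mmp2 (-0.10 to 1.07), Mmp14 (-2.0 to 0.13), Timp1 (-0.62 to 0.65), Timp2 (-0.97 to 0.22), Pdgfra (-0.49 to 0.27) and Thy1 (-1.59 to 0.69). With a pseudocount of 64 Timp1 stood at -0.01 in place of 0.02. No other member reversed under scaling, pseudocount, filter, trend, block or probe set choice. Subtracting chromosome medians turned the sign of Fbln1 (0.09), Dpt (-0.09), Fstl1 (-0.01), Timp1 (-0.02) and the list median (-0.01), and moved Sparc to -0.48. The cause of these shifts was not tested.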
